A study of Mus musculus with 5 samples.

Results

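The Six-family genes and the Sox, Pax, Tbx, Lhx, Dlx, Msx, Nkx and Fox genes encode transcription factors that set the identity of organs and cell types as the embryo forms. Members were the genes whose symbol was 1 of these 9 family names with its number (for Fox, a letter and a number), leaving out Sox9, Sox17 and Sox18, and each gene was read from its brightest probe set. The rule found 99 genes, measured by 158 probe sets, among 12393 named genes on the array. The rule used names and no measured difference between tissues, but members were chosen with earlier results of these data known. Brightness was the mean signal over all arrays.

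Each family shares a DNA-binding domain: the HMG box in Sox, the paired domain in Pax, the T-box in Tbx, the forkhead domain in Fox, and a homeodomain in the Six-family, Lhx, Dlx, Msx and Nkx. Many members are active in a few organs while those organs are laid down and are later silent or kept in small cell populations. In the gut, Foxa factors are pioneer factors of the endoderm that open chromatin in the epithelium, whereas Foxf, Foxl1, Nkx2-3 and Nkx3-2 belong to the mesenchyme around it, which hedgehog signals from the epithelium instruct.

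The colon RNA came from adult C57BL/6 mice aged 8 weeks. The whole mouse RNA came from C57BL/6 mice sacrificed on day 1 after birth, so tissue and age differed together, and every animal was of this 1 strain with no allele or treatment named in the labels. Each RNA was 1 pool from several animals, and mixing gave colon shares of 0%, 25%, 50%, 75% and 100% of total RNA. From each mix 10 ng was amplified in a T7 double amplification and hybridised to 1 Affymetrix MOE430 array, 5 arrays in all. No mix had a second array. The p-values here measure the scatter of arrays made from the same pools around a straight line. That scatter includes any bend of the log2 signal over colon share, and nothing of the spread between mice. Signals are log2 values, 1 unit being a 2-fold difference. Where 5 values follow each other they run from 0% to 100% colon. The slope of a gene is its fitted log2 difference, colon minus whole mouse, from a regression of the signal on colon share. A gene "rose" or "fell" when the slope passed limma's test at a Benjamini-Hochberg adjusted p of 0.05 or less over all 22626 probe sets tested. A large difference did not always pass. Car1, a colon epithelium marker, was 7.39 higher on the undiluted colon array than on the whole mouse array (limma adjusted p = 0.174). Its signals of 6.62, 13.73, 13.83, 13.84 and 14.02 did not follow a straight line. In bulk RNA, fewer cells of a type and less RNA per cell cannot be told apart.

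The labelled tissues carried their markers. The colon epithelium list had a summed intensity of 53939.2 on the undiluted colon array and 8104.53 on the whole mouse array. The epidermis list (337.331 in colon and 29002.3 in whole mouse) and the lung list (375.652 in colon and 10191.6 in whole mouse) stood the other way. The median signals of the 5 arrays lay between 6.83 and 6.92.

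Of the 99 members, 2 rose with colon share (2.02%), Foxa1 and Foxa2, while 9.8% of all genes rose. A further 9 fell (9.09%), while 14.5% of all genes fell. The members that fell were Lhx2, Tbx15, Tbx1, Tbx2, Sox2, Foxd1, Foxc1, Msx2 and Lhx6. In either direction 11 passed, while 24.3% of all genes did. Both shares were thus below those of all genes, and 88 members passed in neither direction. The members were dim, with a median mean signal of 6.05, against 7.57 over all genes, and 22 of 99 reached the median of all probe set means. When dimmer probe sets were left out, Foxa1, Foxa2 and Foxa3 rose and Tbx15 fell, while 19.1% of 7758 genes rose and 21.2% fell. The part of brightness in the shares was not tested. The median slope of the members was -0.06, with quartiles of -0.29 and 0.13, against -0.01 over all genes, with quartiles of -0.35 and 0.29. Slopes were below 0 in 56 members and above 0 in 43. The fall over the families as a whole was therefore slight, and the pattern lay in few members, with slopes between -2.25 and 3.15. On the undiluted arrays alone, 3 members were at least 2-fold higher in colon (3.03%, against 9.26% of all genes), and these were Foxa1, Foxa2 and Foxa3. There were 6 members at least 2-fold lower in colon (6.06%, against 10.4% of all genes), namely Lhx2, Tbx15, Tbx1, Tbx2, Sox2 and Foxc1. The colon signals of Lhx2, Sox2 and Foxc1 were at or below the brightest Bacillus control probe set, which has no target in mouse, so their differences are limited by background. These counts have no test, since each undiluted RNA had 1 array. The whole range over the 5 arrays was 0.5 log2 or less in 52 members (52.5%), close to the 50.2% of all genes. The colon array was the highest of the 5 in 29 members (29.3%, against 33.1% of all genes), and a strict rise at every step was seen in 2 (2.02%, against 8.66% of all genes).

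**Figure D1:**
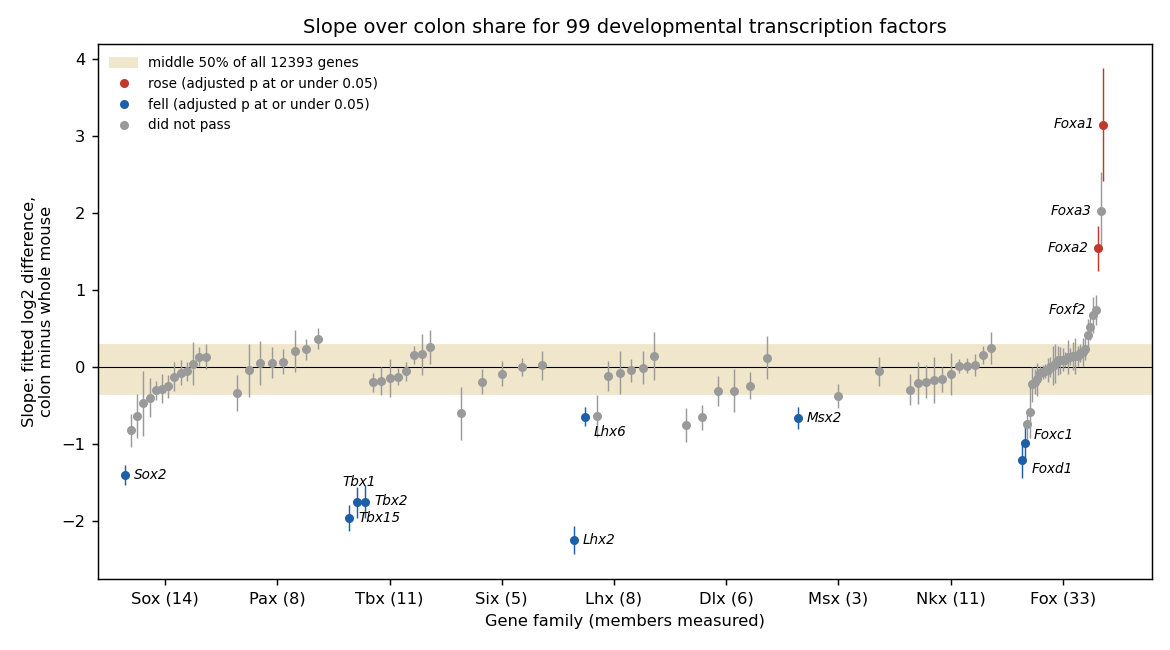
The slope of each of the 99 members (points, with the standard error as a bar) is plotted by family, on an axis of log2 difference, colon minus whole mouse; red and blue mark members that rose or fell, grey those that did not pass, and the band is the middle 50% of all 12393 genes. Foxa1 at 3.15 and Foxa2 at 1.54 rose, Foxa3 at 2.03 just missed the threshold, and the falls reach -2.25 in Lhx2.

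The windows around the transcription starts of the 3 Foxa genes are shown because these were the only members at least 2-fold higher in colon. They come from RefSeq on assembly GRCm38.p6, all 3 genes lie on the minus strand, and each line runs 5′ to 3′ along the gene. The windows are Foxa1 at chr12:57546062-57546361, Foxa2 at chr2:148046920-148047219 (start 1), chr2:148045899-148046198 (start 2) and chr2:148045415-148045714 (start 3), and Foxa3 at chr7:19023490-19023789. Capitals mark matches on either strand to the forkhead core GTAAACA (reverse complement TGTTTAC), the TATA box TATAAA (reverse complement TTTATA) and the CCAAT box CCAAT (reverse complement ATTGG).
Foxa1: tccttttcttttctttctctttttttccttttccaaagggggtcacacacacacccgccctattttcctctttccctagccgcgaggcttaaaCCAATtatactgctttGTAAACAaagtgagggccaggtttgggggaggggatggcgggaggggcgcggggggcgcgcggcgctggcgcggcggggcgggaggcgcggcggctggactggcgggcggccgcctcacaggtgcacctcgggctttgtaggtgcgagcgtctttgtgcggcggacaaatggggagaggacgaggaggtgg
Foxa2 start 1: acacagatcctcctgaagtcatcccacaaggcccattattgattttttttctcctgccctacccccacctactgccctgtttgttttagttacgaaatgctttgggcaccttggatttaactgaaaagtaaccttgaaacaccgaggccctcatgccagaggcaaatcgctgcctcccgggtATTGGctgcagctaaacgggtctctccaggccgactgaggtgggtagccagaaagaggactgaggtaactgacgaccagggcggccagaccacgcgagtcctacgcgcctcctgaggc
Foxa2 start 2: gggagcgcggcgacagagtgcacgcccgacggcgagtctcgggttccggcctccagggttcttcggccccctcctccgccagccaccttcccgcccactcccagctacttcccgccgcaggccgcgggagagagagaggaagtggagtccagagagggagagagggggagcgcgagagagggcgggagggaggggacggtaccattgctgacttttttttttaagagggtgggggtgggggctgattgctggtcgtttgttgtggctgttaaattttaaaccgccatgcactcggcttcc
Foxa2 start 3: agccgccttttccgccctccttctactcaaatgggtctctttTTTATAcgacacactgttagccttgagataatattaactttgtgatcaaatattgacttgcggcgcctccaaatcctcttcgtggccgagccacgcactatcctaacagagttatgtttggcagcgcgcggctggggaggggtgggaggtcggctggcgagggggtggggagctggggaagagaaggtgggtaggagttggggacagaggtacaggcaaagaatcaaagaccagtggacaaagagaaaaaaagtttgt
Foxa3: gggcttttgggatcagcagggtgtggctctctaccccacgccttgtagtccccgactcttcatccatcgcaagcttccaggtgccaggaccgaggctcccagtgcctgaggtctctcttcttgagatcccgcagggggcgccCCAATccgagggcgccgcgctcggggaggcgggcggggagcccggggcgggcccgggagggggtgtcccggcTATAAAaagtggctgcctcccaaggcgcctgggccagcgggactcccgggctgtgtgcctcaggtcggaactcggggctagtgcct

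Counting from 1 at the 5′ end, the Foxa1 window held GTAAACA at bases 110 to 116, downstream of a CCAAT at bases 94 to 98. The core was found in 3.65% of 32851 RefSeq promoter windows of the same length, and in neither of the other genes' windows printed here. Foxa3 held CCAAT at bases 143 to 147 and TATAAA at bases 215 to 220, the order usual upstream of a start. At Foxa2, start 1 held CCAAT on the opposite strand at bases 183 to 187, start 3 held TATAAA on the opposite strand at bases 43 to 48, and start 2 held none of the motifs. CCAAT was found in 37.4% of all windows and TATAAA in 13.6%. No matches overlapped, and a match is a description of letters only. G and C made up 62.3% of the window in Foxa1, 54.3%, 64% and 51.7% at the Foxa2 starts and 69% in Foxa3.

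Foxa1, which with Foxa2 opens chromatin for intestinal and secretory genes, had log2 signals of 6.51, 8.77, 9.50, 9.56 and 10.05. Every step up in colon share raised it, and most of the log2 difference was already present with 25% colon. On the linear intensity scale that mix stood at 35.5% of the difference. Colon exceeded whole mouse by 3.54 on the undiluted arrays (11.6-fold), and the slope was 3.15 (SE 0.73, 95% interval 1.26 to 5.04, limma with Benjamini-Hochberg adjusted p = 0.0443). Among all genes, 94 had a higher slope.

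Foxa2, needed to form the foregut endoderm and later shared by the epithelia of gut, lung and liver, had signals of 7.02, 7.89, 8.36, 8.51 and 8.64. These also stood in strict order, with shrinking steps. Colon was 3.06-fold above whole mouse, and the slope was 1.54 (SE 0.29, 95% interval 0.78 to 2.30, limma adjusted p = 0.0284). There were 525 genes with a higher slope.

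Foxa3, the third member of the group, known from liver and from goblet cells of the gut, had signals of 6.61, 8.19, 8.38, 8.84 and 8.82. The arrays with colon RNA all stood above the whole mouse array, and those with 75% and 100% colon were nearly level. Colon was 4.62-fold above whole mouse, and the slope of 2.03 (SE 0.51, 95% interval 0.72 to 3.33) missed the threshold at a limma adjusted p of 0.0521. Foxa3 was the nearest member outside the threshold on the rising side, while Foxa1 was the nearest inside it.

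The calls of Foxa1 and Foxa2 rest on all 5 arrays. Leaving out any 1 array ended both calls, with slopes of 1.57 to 3.95 and limma adjusted p of 0.0576 to 0.128 for Foxa1, and slopes of 0.96 to 1.98 and limma adjusted p of 0.0561 to 0.1 for Foxa2. The same omissions reduced the genes that rose over the whole array to between 101 and 802, against 1215 with all arrays. Each Foxa gene had 1 probe set, so no second probe set bears on these values.

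The bend of the Foxa signals was compared with mixing of the undiluted arrays on the linear intensity scale. From the end arrays, Foxa1 was expected at 8.38, 9.17 and 9.68 in the 25%, 50% and 75% mixes, and its measured values deviated by 0.38, 0.33 and -0.11. Foxa2 was expected at 7.62, 8.05 and 8.37 and stood above by 0.26, 0.31 and 0.14. For Foxa3 the expected values were 7.54, 8.10 and 8.51, and the excess was 0.64, 0.27 and 0.33. A straight line on the log2 scale is therefore a rough description of these genes. As a position between the end arrays, Foxa1 stood at 35.5%, 65.2% and 68.5% in these mixes and Foxa2 at 39.6%, 73.9% and 87.6%. The median position over the 1148 genes at least 2-fold higher in colon was 43.1%, 62.6% and 74.6%. In the 25% and 50% mixes both genes thus stood above the mixing ratio, as that median did.

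**Figure D2:**
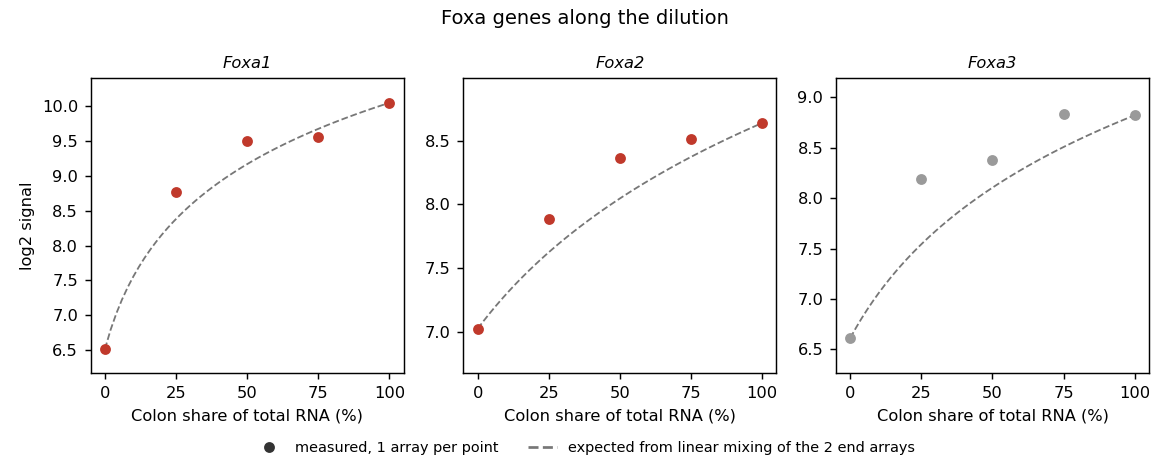
Log2 signals of Foxa1, Foxa2 and Foxa3 (points, 1 array each) are plotted against the colon share of total RNA in percent, with the curve expected from linear mixing of the 2 end arrays (dashed). At 25% colon the measured points lie above the curve by 0.38, 0.26 and 0.64.

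The epithelial markers moved with the Foxa genes. All 8 measured markers of colon epithelium had slopes above 0, between 0.39 and 5.96, of which 2 passed the test, and their summed intensity over the 5 arrays was 8104.53, 39137.3, 46225.1, 48133.0 and 53939.2. Of 6 enteroendocrine markers 3 rose, with a sum of 7799.86 in colon and 1533.09 in whole mouse, and of 4 goblet cell markers 1 rose, with sums of 33717.6 in colon and 7186.91 in whole mouse. The part of these cell types in the Foxa values was not tested. The other members listed for gut endoderm and epithelium did not follow. That list, assembled with earlier results of these data known, had 9 measured members, of which 2 rose and 1 fell. Its median slope was 0.23, and over all genes 9.8% rose and 14.5% fell.

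The member of this list that fell was Sox2 (slope -1.40), whose values are given with the falls, and the remaining endoderm factors did not pass. Foxq1, needed in mice for mucin in stomach surface cells, had signals of 6.56, 6.56, 6.30, 6.48 and 6.71 (slope 0.09, 95% interval -0.39 to 0.57). Nkx2-2, a factor of islet and enteroendocrine cells, had 4.28, 4.33, 4.05, 4.56 and 4.48. Its colon and whole mouse values differed by less than the spread over the mixes. On every array Nkx2-2 was at or below the brightest Bacillus control probe set, so background limits its values. The same held for 16 of the 99 members (16.2%), Nkx2-2 included. The others were Foxd1, Foxd4, Foxp3, Lhx1, Lhx5, Lhx8, Nkx3-2, Six4, Six6, Sox1, Sox2, Sox6, Sox11, Tbx4 and Tbx18. Pax4 and Pax6, both needed for islet and enteroendocrine lineages, had slopes of 0.23 and -0.04, and Nkx6-1, a beta cell factor, had a slope of 0.16. Chgb, Gcg and Pyy, which mark the enteroendocrine cells themselves, rose. Pax6 was read by 5 probe sets with slopes between -0.04 and 0.07, none past the threshold.

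The mesenchymal partners of the epithelium did not pass in either direction. In the list for gut mesenchyme, 0 of 6 members rose (9.8% of all genes did) and 0 fell (14.5% of all genes did). The median slope was 0.01. At an unadjusted p under 0.05 there was 1, Foxf2, which is required for colon mesenchyme in mice. Its signals were 5.13, 5.16, 5.74, 5.62 and 5.83, with the 3 arrays richest in colon above the others, and the slope was 0.74 (95% interval 0.25 to 1.23, limma adjusted p = 0.0549). Foxf2 passed when the arrays were centred on their medians (limma adjusted p = 0.0346). Foxf1, its close relative in splanchnic mesoderm, had 6.47, 6.29, 6.47, 6.47 and 6.90, so only the undiluted colon array stood apart (slope 0.42, limma adjusted p = 0.221). Exactly equal values on different arrays, as in Foxf1, were found in 43 members.

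The other mesenchymal members gave no sign of a difference at this precision. Foxl1, a marker of cells just under the epithelium, had 6.32, 6.14, 6.19, 6.19 and 6.30 and a slope whose 95% interval ran from -0.33 to 0.33. Nkx2-3, which patterns gut and spleen mesenchyme and gut vessels, had 7.14, 7.14, 7.08, 7.18 and 7.14, with an interval of -0.24 to 0.27. Its 3 probe sets had slopes from -0.04 to 0.12. Six2, known from kidney progenitors and the pylorus, and Nkx3-2, from stomach and skeleton, had slopes of 0.0055 and -0.16. Markers of smooth muscle, which lies in the same wall, had a summed intensity of 22614.5 in colon and 11590.3 in whole mouse. Of these markers 2 of 5 rose, while 9.8% of all genes did.

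Of the 11 measured hedgehog and Bmp genes that act on this mesenchyme, 2 rose (9.8% of all genes did) and 2 fell (14.5% of all genes did), at a median slope of -0.08. Ihh, the hedgehog ligand of the colon epithelium, had 6.52, 7.40, 8.11, 8.38 and 8.61 (slope 2.06, SE 0.28, limma adjusted p = 0.0137). Bmp4, a ligand that gut mesenchyme makes in response to hedgehog, had 7.40, 7.72, 8.02, 8.10 and 8.18 (slope 0.77, limma adjusted p = 0.0264). Both stood in strict order. Gli1, a hedgehog effector and target gene used throughout the embryo, had 9.32, 8.66, 8.28, 8.03 and 6.89 (slope -2.19, limma adjusted p = 0.0104). Smo, the signal transducer at the membrane, fell with a slope of -0.61. Shh and the receptor Ptch1 did not pass, at slopes of -0.06 and -0.20. Bmp5 and Bmp7 did not pass on the brightest probe set, although 1 dimmer probe set of each did. The slopes of their probe sets reached 0.57 for Bmp5 and ran from -1.29 to 0.22 for Bmp7. The calls of Bmp4 and Smo were lost on leaving out any 1 array. That of Ihh was lost without the whole mouse array or the 75% mix, and that of Gli1 without the whole mouse array or the colon array.

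**Figure D3:**
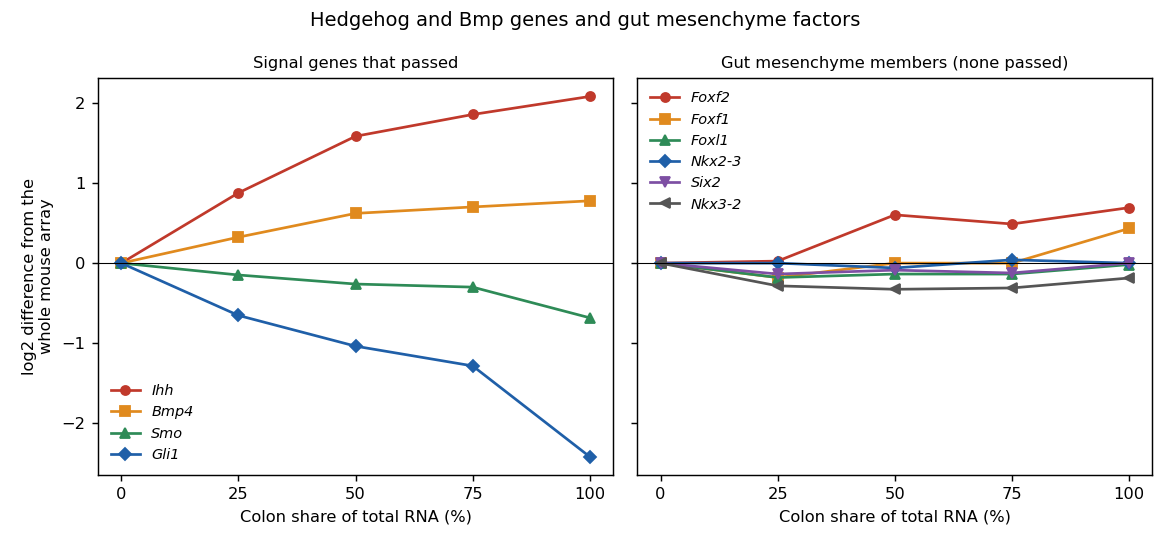
The log2 difference from the whole mouse array is plotted against the colon share in percent, for the hedgehog and Bmp genes that passed (left) and the 6 gut mesenchyme members (right), with 1 array per point. On the undiluted colon array Ihh stands at 2.09 and Gli1 at -2.42, while the mesenchyme members lie between -0.19 and 0.69.

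Among the falls, Lhx2 was the largest. This LIM-homeodomain factor of forebrain, eye and hair follicle stem cells had signals of 6.12, 5.68, 5.17, 4.27 and 4.01 (slope -2.25, SE 0.18, limma adjusted p = 0.00512). Tbx15, a T-box factor of dermis, skeleton and muscle, had 8.07, 7.52, 7.19, 6.40 and 6.19 (slope -1.96, SE 0.16, limma adjusted p = 0.0054). Both lost signal at each step, and the undiluted colon array stood 3.70-fold below the whole mouse array in Tbx15. No fold is given for Lhx2, whose colon signal was under the brightest Bacillus control probe set on that array (5.21). A second Tbx15 probe set had 5.17, 5.17, 5.13, 5.36 and 5.24 and did not share the fall (slope 0.14, limma adjusted p = 0.511).

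A pair of T-box factors of the heart and pharynx followed. Tbx1, required for the pharyngeal arches and the outflow tract, had 7.49, 6.88, 6.22, 6.13 and 5.67 (slope -1.76, SE 0.20, limma adjusted p = 0.00935). Tbx2, a repressor in heart, limb and lung, had 6.97, 6.91, 6.43, 5.94 and 5.27 (slope -1.75, SE 0.21, limma adjusted p = 0.0105). Their colon arrays were 3.53-fold and 3.25-fold below whole mouse, and all 5 values of each were in strict order. Sox2, a pluripotency and neural progenitor factor that also marks the foregut in front of the intestine, had 4.41, 4.11, 3.54, 3.32 and 3.05 (slope -1.40, SE 0.13, limma adjusted p = 0.00673). Strict falling order was seen in these 5 members (5.05%) and in 12.1% of all genes.

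The last 4 falls were smaller and their order was not strict. Foxd1, of kidney stroma and forebrain, had 4.86, 4.82, 4.30, 3.74 and 3.89 (slope -1.21, limma adjusted p = 0.0304). Foxc1, of eye, vessels and skull, had 6.08, 5.44, 5.29, 4.98 and 5.08 (slope -0.98, limma adjusted p = 0.0469), and it was the fall closest to the threshold. In both, the 75% mix lay slightly below the undiluted colon array. Msx2, of skull, teeth and hair follicles, had 6.26, 5.84, 5.84, 5.70 and 5.51 (slope -0.66, limma adjusted p = 0.0361). Lhx6, of cortical interneurons and the jaw, had 6.77, 6.78, 6.41, 6.38 and 6.17 (slope -0.64, limma adjusted p = 0.0309). The second probe sets of Foxc1 and Lhx6 were level, with slopes of -0.04 and 0.05.

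**Figure D4:**
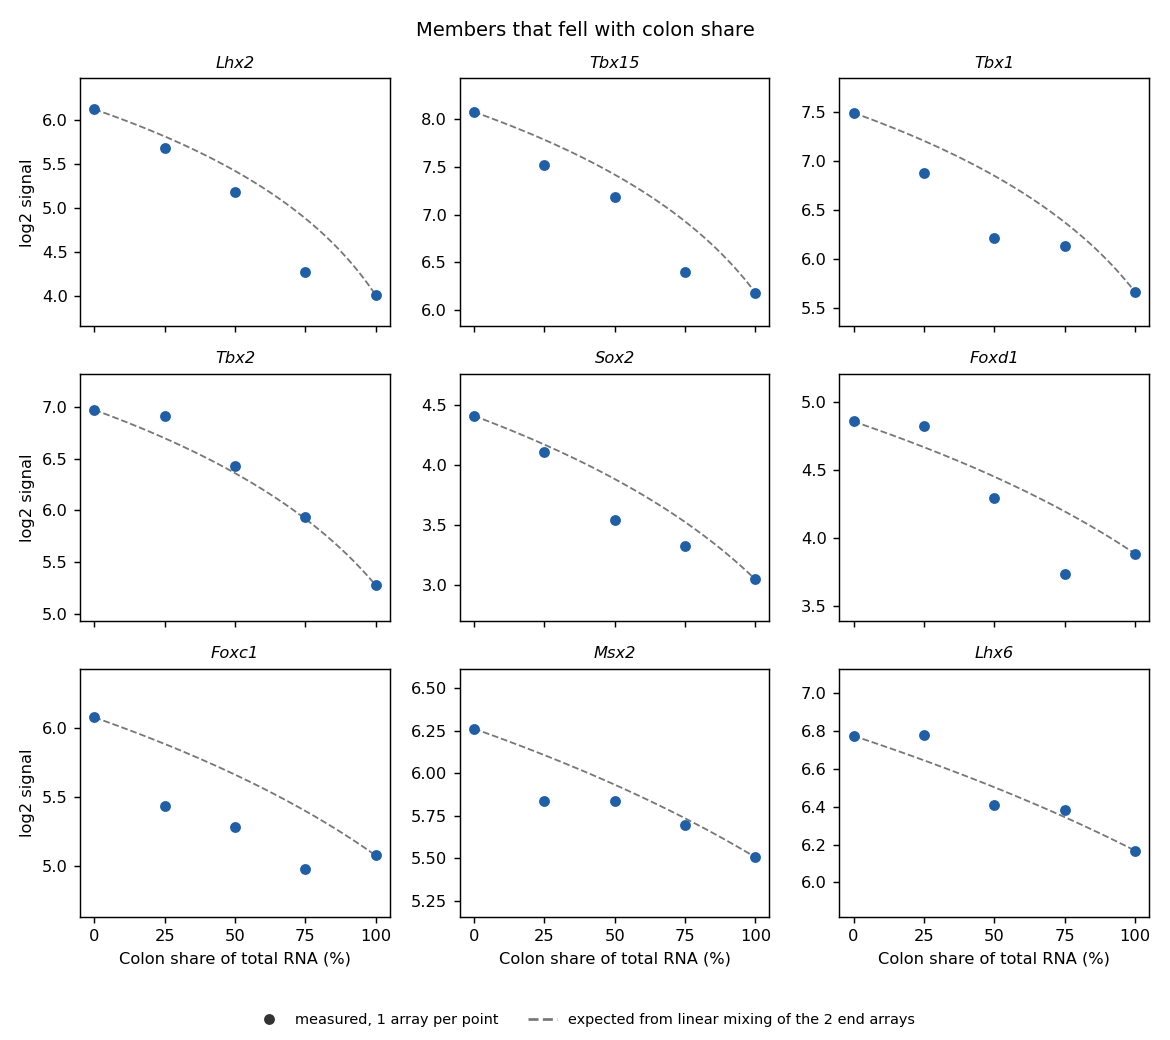
Log2 signals of the 9 members that fell (points, 1 array each) are plotted against the colon share in percent, with the curve expected from linear mixing of the 2 end arrays (dashed). The slopes run from -2.25 in Lhx2 to -0.64 in Lhx6.

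Leaving out 1 array left between 4 and 7 members falling. The same omissions reduced the genes that fell over the whole array to between 632 and 1223, against 1797 with all arrays. Lhx2, Tbx15 and Sox2 passed in all 5 such fits. Tbx1 lost its call without the whole mouse or the colon array, Tbx2 without the 75% mix or the colon array, and Msx2 in every such fit except that without the 25% mix. Foxc1, Foxd1 and Lhx6 passed in none of them. Signals were low in part of this group: Foxd1 and Sox2 were at or below the brightest Bacillus control probe set on every array, and Foxc1 and Lhx2 were so on the colon array. Those controls match bacterial sequences absent from mouse and show the level of background.

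Markers of the organs these factors belong to were low on the colon array. All 4 cartilage markers fell, with sums of 355.585 in colon and 5793.13 in whole mouse. Of the heart markers 3 of 4 fell (349.635 in colon and 11653.5 in whole mouse), of the neuronal ones 2 of 4 (342.979 in colon and 1878.13 in whole mouse), and of the kidney ones 2 of 4 (222.651 in colon and 356.104 in whole mouse). Against the 14.5% of all genes that fell, skin and hair had 3 falls among 6 measured members (Lhx2, Tbx15 and Msx2) at a median slope of -0.48. Brain and eye had 3 among 20 (Lhx2, Sox2 and Lhx6) at -0.09, heart 2 among 6 (Tbx1 and Tbx2) at -0.20, and skeleton and limb 2 among 15 (Msx2 and Foxc1) at -0.25. The shares for brain and eye and for skeleton and limb were near that of all genes. Skeletal muscle had 1 among 4 (Tbx15) and kidney 1 among 5 (Foxd1). In these 6 lists 0 members rose by limma, while 9.8% of all genes did. At an unadjusted p under 0.05, 1 member had a slope above 0 (Pax3, listed for muscle). The part of organ content in each fall was not tested.

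Within the Sox family, 1 of 14 members fell (14.5% of all genes did) and 0 rose (9.8% of all genes did). The median slope was -0.27, with 11 slopes below 0. Sox7, an endothelial factor, was closest to the threshold at a limma adjusted p of 0.0573 (signals 6.25, 6.02, 5.62, 5.35 and 5.56). Sox12, widely expressed in embryonic progenitors, differed in another way. The 4 arrays with colon RNA read between 7.47 and 7.49, against 8.25 on the whole mouse array. Sox4, its relative in progenitors and lymphocytes, had 7.80, 8.62, 7.96, 7.55 and 7.74, so the 25% mix was highest. On that same array the hybridisation control probe sets, spiked in after amplification, had a median 0.75 above the whole mouse array, and the part of this in the Sox4 value was not tested. The 5 other Sox4 probe sets were not highest in that mix.

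The remaining Sox members did not pass. Sox10, of neural crest and enteric glia, had 7.09, 6.47, 6.63, 6.74 and 6.46 (slope -0.40, limma adjusted p = 0.343). The other Sox10 probe sets had slopes of 0.09 and 0.27 and did not pass either. Foxd3 and Pax3, the other measured factors of neural crest, had slopes of -0.04 and 0.37 without passing. Markers of enteric neurons and glia summed to 274.912 in colon and 306.514 in whole mouse, and 1 of 4 fell (14.5% of all genes did). The neural progenitor factors Sox1 and Sox3 had slopes of -0.30 and -0.07, the cartilage factors Sox5 and Sox6 had 0.04 and -0.25, and Sox11, Sox13, Sox14, Sox15 and Sox21 lay between -0.28 and 0.14.

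All 8 Pax members missed the threshold, which 24.3% of all genes passed. Their slopes ran from -0.33 in Pax1 to 0.37 in Pax3, with a median of 0.06. Pax3, a factor of neural crest and muscle precursors, had 6.16, 6.16, 6.13, 6.39 and 6.51 (limma adjusted p = 0.118). A second Pax3 probe set was level, with a slope of 0.04. Pax1 and Pax9, which pattern vertebrae and thymus, had slopes of -0.33 and 0.06. Pax5, the B cell factor, had 5.19, 4.93, 4.67, 4.93 and 5.26, highest on the colon array and lowest in the 50% mix. Pax7, of muscle stem cells, and Pax8, of thyroid and kidney, were likewise lowest in the 50% mix, at slopes of 0.21 and 0.07.

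Beside the 3 falls (14.5% of all genes fell), 8 of 11 Tbx members did not pass, with slopes between -0.20 and 0.26. Tbx19, the factor of pituitary corticotropes, was the highest of them (6.74, 6.72, 6.44, 6.87 and 6.998). Tbx21, which directs type 1 helper T cells, had 5.72 on all 4 arrays with colon RNA, against 5.52 on the whole mouse array, a difference within the spread of the fit (slope 0.16, limma adjusted p = 0.406). Tbx3, Tbx5 and Tbx20, of heart and limb, had slopes of -0.05, -0.18 and 0.16. Tbx4, of hindlimb and lung, Tbx6, of paraxial mesoderm, and Tbx18, of epicardium and ureter, had -0.14, -0.20 and -0.12.

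None of the 5 Six-family members passed (median slope -0.08), while 24.3% of all genes did. Six6, of retina and pituitary, had 4.95, 4.27, 3.98, 4.13 and 4.27, with the whole mouse array alone above the rest (slope -0.60, limma adjusted p = 0.296). Six3, of forebrain and eye, Six4, of muscle, and Six5 had slopes of 0.02, -0.08 and -0.19. Their partners behaved alike in this respect: 0 of 6 measured Eya and Dach genes rose or fell by limma, and 1 had an unadjusted p under 0.05, Eya2.

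Of 8 Lhx members 2 fell (14.5% of all genes did) and 7 had slopes below 0. Lhx8, of forebrain cholinergic neurons and oocytes, had 4.66, 4.35, 3.80, 4.01 and 4.03 (slope -0.64, limma adjusted p = 0.173). Lhx1, Lhx3, Lhx4, Lhx5 and Lhx9, factors of kidney, pituitary, hippocampus and gonad among other sites, had slopes between -0.12 and 0.14. The LIM partners with which this family forms complexes showed 3 falls among 11 measured genes, while 14.5% of all genes fell. Lmo1, a LIM-only protein, had 8.13, 7.66, 7.07, 6.10 and 5.70 (slope -2.58, limma adjusted p = 0.0042). Lmo2, a cofactor of blood and vessel cells, had a slope of -1.18 and the shared adaptor Ldb1 one of -0.62. The Lmo1 call held on leaving out each array, that of Lmo2 was lost without the whole mouse array, the 75% mix or the colon array, and that of Ldb1 in every such fit except that without the 25% mix.

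The Dlx and Msx genes, homeobox factors of jaw, limb and forebrain, leaned below 0. No Dlx member passed, while 24.3% of all genes did, and 5 of 6 slopes were below 0 (median -0.31). Dlx5, of jaw and bone, had 6.70, 6.28, 6.28, 5.98 and 6.04 and lay just outside the threshold (slope -0.65, limma adjusted p = 0.0523). Dlx1, of forebrain interneurons, had 6.19, 5.54, 5.54, 5.47 and 5.29 (slope -0.75, limma adjusted p = 0.0718) and passed without the 25% mix. Dlx2, Dlx3 and Dlx4 had slopes of -0.31, -0.31 and -0.24, and Dlx6 had 0.12. Beside Msx2, Msx1, of teeth and palate, had 7.38, 7.09, 7.005, 6.90 and 7.005 (slope -0.38), and Msx3, of the dorsal neural tube, had a slope of -0.06.

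No Nkx member passed, while 24.3% of all genes did, and all 11 slopes lay between -0.29 and 0.25. Nkx2-5, the cardiac factor, had 6.95, 6.35, 6.40, 6.58 and 6.58. Nkx2-6, of pharynx and early heart, had 7.95, 7.46, 7.54, 7.54 and 7.54. In both the whole mouse array was highest, and the arrays with colon RNA did not go down with colon share. Nkx2-1, of lung and thyroid, had 5.81, 5.48, 5.15, 5.72 and 5.48, although the lung markers summed to 375.652 in colon and 10191.6 in whole mouse. Nkx2-9, Nkx2-4, Nkx1-2 and Nkx6-2 had slopes of 0.01, -0.19, -0.09 and 0.02.

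The Fox family held both rises, 2 falls and 29 members that did not pass, while 9.8% of all genes rose and 14.5% fell. Its median slope was 0.10, with 11 of 33 slopes below 0. Foxo3, a stress-responsive factor under insulin control, had 8.63, 9.22, 9.29, 9.14 and 9.51 (slope 0.67, limma adjusted p = 0.114). Its second probe set had 7.26, 8.20, 8.20, 8.14 and 8.59 (slope 1.04, limma adjusted p = 0.0803), and the third was level at 0.10. Foxj2, a broadly expressed factor, had 7.95, 7.80, 8.27, 8.21 and 8.41 (slope 0.53, limma adjusted p = 0.0971). A second, dimmer Foxj2 probe set went the other way without passing (slope -0.17). Foxc2, of lymphatic vessels and skeleton, had 6.19, 6.14, 5.63, 5.52 and 5.57 and was just outside the threshold (slope -0.75, limma adjusted p = 0.0512).

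Foxp1, read by 7 probe sets, was level on the brightest, at 8.92 on the colon array and 8.79 on the 4 others. All 7 slopes were above 0, up to 0.81 (signals 4.68, 5.30, 5.30, 5.31 and 5.68, limma adjusted p = 0.0578), and none passed. Foxp3, the factor of regulatory T cells, had 4.75, 4.65, 4.68 and 4.75 on the arrays below 100% colon and was 0.25 above whole mouse on the colon array (slope 0.24, limma adjusted p = 0.332). On every array Foxp3 was at or below the brightest Bacillus control probe set, so background limits its values. The T cell markers were near level too, at summed intensities of 591.646 in colon and 639.937 in whole mouse. Foxm1, a factor of dividing cells, had signals between 7.69 and 7.77. Of 3 proliferation markers 0 passed by limma (24.3% of all genes did), with 0 at an unadjusted p under 0.05.

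The other Fox members did not pass, which does not show that the tissues were alike. Foxn4, of retina and spinal cord, had between 7.32 and 7.54 on the arrays with colon RNA, against 8.27 on the whole mouse array (slope -0.58, limma adjusted p = 0.299). Foxj1, the factor of motile cilia, had between 5.98 and 6.00 on the arrays with colon RNA, against 6.07 on the whole mouse array. Foxo1 and Foxo4, relatives of Foxo3, had slopes of 0.14 and 0.14, and the broadly expressed Foxk1, Foxk2, Foxj3 and Foxn2 had -0.05, -0.19, 0.14 and 0.15. Foxb1, Foxb2, Foxd2, Foxd4, Foxe3, Foxh1, Foxi1, Foxn1 and Foxp2, which have narrow sites of expression such as hindbrain, lens, inner ear or thymus, had slopes between -0.22 and 0.19. Across the families no second or further probe set passed, so the 11 calls among 158 probe sets were all on the brightest probe set of a gene.

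The corepressors and cofactors that many families share were described beside the shares of all genes, of which 9.8% rose and 14.5% fell. Of 6 Groucho corepressors 1 rose, Tle1, with signals of 8.11, 8.26, 8.38, 8.58 and 8.69 (slope 0.59, limma adjusted p = 0.0184). Tle2, at a slope of -0.95, and Tle4 and Tle5, at 0.64 and 0.55, did not pass, although a second, dimmer Tle4 probe set with a slope of 0.77 did. Of 8 TALE homeodomain cofactors 1 fell, Meis2, with 6.53, 6.56, 6.38, 6.22 and 5.88 (slope -0.66, limma adjusted p = 0.0392). Leaving out any 1 array ended the call of Meis2, and that of Tle1 held only without the 25% mix.

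A list of other developmental factors, from the Gata, Irx, Zic, Pitx, Prrx, Hand, Twist and Tfap2 families, was described for comparison. Among the 99 members 2 rose and 9 fell, at a median slope of -0.06. In this list 1 of 25 rose and 11 fell, at -0.76, while 9.8% of all genes rose and 14.5% fell. The list was chosen with earlier results known and no test of the difference was made. Gata6, an endoderm factor of the gut epithelium, rose, with 6.57, 7.51, 7.53, 7.84 and 7.92 (slope 1.22, limma adjusted p = 0.0478), and its call held only without the 25% mix when single arrays were omitted. The largest falls were in limb, dermis and skull mesenchyme genes. Prrx1 had 8.01, 7.61, 6.77, 5.68 and 4.65 (slope -3.46, limma adjusted p = 0.00465), although this was the only 1 of its 4 probe sets that passed. The median over those 4 had a slope of -0.45 and did not pass (limma adjusted p = 0.0852). Twist2, a dermal factor, had 8.78, 8.28, 7.74, 7.03 and 6.22 (slope -2.54, limma adjusted p = 0.00393). Prrx2 had a slope of -2.31 and lost its call without the colon array (limma adjusted p = 0.0652) and on the intensity scale (limma adjusted p = 0.0975).

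For the 88 members that did not pass, the set was described by its median. This median difference from the whole mouse array was -0.20, -0.26, -0.12 and -0.06 at 25%, 50%, 75% and 100% colon, lowest in the middle of the series, a shape of the median that most single members did not have. The whole mouse array was the highest of the 5 in 46 of them (52.3%), against 41.6% of all genes, and the 50% mix was the lowest in 35 (39.8%), against 19.4% of all genes. The 27 Bacillus control probe sets, which have no target in mouse RNA, had medians of -0.09, -0.22, -0.10 and -0.03. In them the whole mouse array was highest in 16 (59.3%) and the 50% mix lowest in 20 (74.1%). Over all tested probe sets the medians were -0.06, -0.10, -0.04 and 0.00. The medians of the uncalled members and of the probe sets without a target were thus lowest in the same mix, and the part of this in the uncalled values was not tested.

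**Figure D5:**
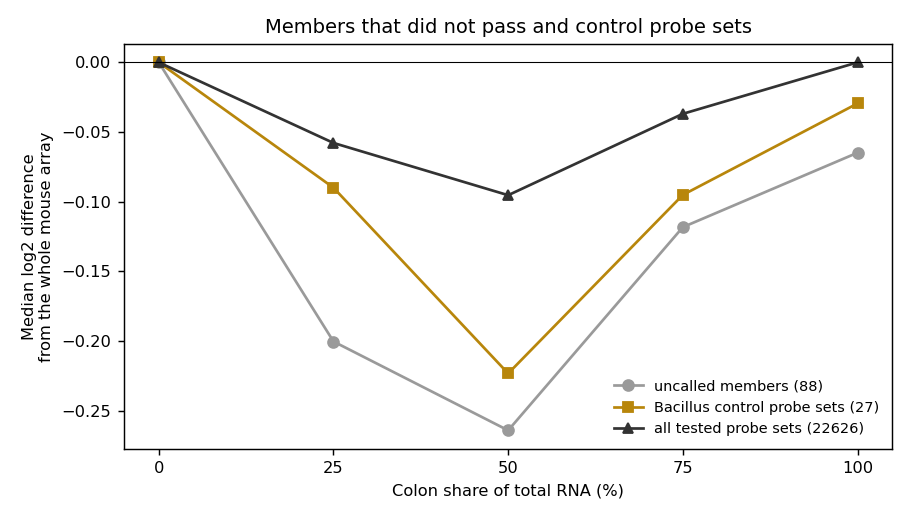
The median log2 difference from the whole mouse array is plotted against the colon share in percent, for the 88 members that did not pass, the 27 Bacillus control probe sets and all 22626 tested probe sets. The members and the controls are lowest at 50% colon, at -0.26 and -0.22.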

How the data were processed

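The authors deposited log2 signals of 22690 probe sets on 5 arrays. They were made with RMA per the submitters' processing notes (version not given in the sources used here). RMA scales all arrays to 1 distribution and summarises probes by median polish, which can give equal values on several arrays (9158 probe sets here). The 64 control probe sets were set aside. The platform annotation gave 1 gene for 20380 probe sets, several for 691 and none for 1555, and all 99 members were matched in RefSeq (GRCm38.p6).

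Each of 22626 probe sets was regressed on colon share (0 to 1) with limma 3.58.1 in R 4.3.3, using eBayes with 3 residual degrees of freedom and no filter on signal. The fit was tested on simulated data. Tests were 2-sided, and p-values were adjusted by Benjamini-Hochberg over the whole table. Linear intensities were used for mixing and marker sums. The rule for named genes took every member that rose or was at least 2-fold higher in colon, the 10 largest falls, the largest fall and the brightest uncalled member of each family, the 5 brightest in colon, all gut members, members whose probe sets disagreed, and up to 3 partners per list and direction. Other members are named to account for their family, after their values were seen. Members and gene lists were chosen with earlier results of these data known. Alternatives were intensity scale, median centring, a filter on dim probe sets, eBayes with trend, the median of a gene's probe sets, the 75% against the 25% mix, and leaving out each array.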

Additional observations from a re-analysis of the deposited data

How the results depend on the processing

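No paired analysis was possible because each mix had 1 array. The number of members that rose, 2 with all arrays, was 4 with arrays centred on their medians and 4 with the median of a gene's probe sets, adding Foxa3 and Foxf2 in both, 3 without dim probe sets, adding Foxa3, and 0 to 0 when 1 array was left out. With the trended eBayes, Foxa2, Foxa3 and Foxf2 rose and Foxa1 did not. The number that fell, 9 with all arrays, was 4 on the intensity scale, 1 without dim probe sets (Tbx15), 8 with centred arrays, 10 with the median of probe sets, 12 with the trended eBayes (adding Dlx5, Foxc2 and Sox7) and 4 to 7 when 1 array was left out. The fits without 1 array have fewer samples, and the filter tests fewer genes (7758); the other causes were not tested. When the 75% mix was set against the 25% mix at a threshold of 0.5 log2, 5 members were higher. On the undiluted arrays 3 were at least 2-fold higher in colon. Foxo4 and Lhx3 were added by the mixes only. On the undiluted arrays their colon signals were not higher, at log2 differences from whole mouse of -0.0996 and -0.0958. Centring moved the split over all genes to 1933 rising and 1703 falling, against 1215 and 1797. Leaving out 1 array left 101 to 802 of all genes rising and 632 to 1223 falling.

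Slopes were refitted for the 37 named members and 13 named partners. Signs turned in 24 fits of 15 members, none past the threshold. Centring gave slopes of 0.0421 in Foxd3, 0.0726 in Lhx4 and 0.0398 in Pax6, and the median of probe sets gave -0.0419 in Nkx2-3 and 0.0060 in Pax6. Leaving out 1 array gave ranges of -0.89 to 0.0735 in Dlx3, -0.16 to 0.10 in Foxd3, -0.19 to 0.35 in Foxj3, -0.15 to 0.19 in Foxl1, -0.19 to 0.25 in Foxq1, -0.17 to 0.37 in Lhx4, -0.0069 to 0.0406 in Nkx2-3, -0.46 to 0.10 in Nkx2-6, -0.39 to 0.12 in Nkx3-2, -0.0060 to 0.35 in Pax4, -0.65 to 0.59 in Pax6, -0.0165 to 0.38 in Pax9, -0.13 to 0.15 in Six2, -0.30 to 0.10 in Six5 and -0.57 to 0.0329 in Sox10. Foxa1, Foxa2 and Foxa3 kept slopes above 0, and the 9 falls slopes below 0, under every setting that gave a value. Precision is limited by 1 array per mix, and for dim members by background.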
